A study of Mus musculus with 32 samples.

Results

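The genes described here are 10 markers of the progenitor-like fibroblasts of the vessel's outer coat, the adventitia: Pi16, Pi15, Ly6a, Ly6c1, Cd34, Dpt, Pdgfra, Scara5, Dpp4 and Thy1. They were taken by name from the 2 deposited tables, which list 23284 genes each, and all 10 were present in both. All 10 passed the filter on low counts in both tables, but in culture Dpp4 and Thy1 rest on at most 20 counts a library. Pi16, Ly6a, Cd34 and Dpt were in part selected on measured values, namely higher counts in one culture line than in the other, and Ly6a also on its count with POVPC in the wild-type line in normoxia. The differences between the culture lines, and the POVPC response of the WT line in normoxia, are therefore described without a test. The hypoxia responses of these 4 genes start from the same normoxia libraries, so they are given as descriptions too, with no p-value.

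RNA sequencing covered 32 mouse libraries. In tissue, brachiocephalic arteries with atherosclerotic lesions came from C57BL/6 animals on a Western diet for 18 weeks, 4 of genotype Oct4 -/- (KO) and 4 wild type (WT). In culture, 1 primary aortic smooth muscle cell line per genotype, also C57BL/6, was given vehicle or POVPC, an oxidized phospholipid found in lesions, and kept at normoxia or at 1% oxygen (hypoxia). Each of these 8 groups has 3 libraries. The labels name no Cre driver, no Apoe allele, no age and no length of treatment. With 1 line per genotype, genotype and line cannot be told apart in culture. Nothing says that the 3 libraries of a group came from separate cultures, so the p-values there measure the spread between libraries, which may be technical.

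The adventitia surrounds the smooth muscle coat and holds fibroblasts, small vessels, nerves and immune cells. Fibroblasts that carry Pi16, Dpp4, Ly6a (Sca-1) and Cd34 are described as a progenitor-like population found around vessels in many organs. Pdgfra, a receptor for platelet-derived growth factor, marks fibroblasts broadly, and Dpt (dermatopontin) is a matrix protein that many of them secrete. None of these markers is exclusive to fibroblasts: Ly6a, Ly6c1 and Cd34 are also made by endothelial cells, Thy1 by T cells and neurons, and Dpp4 by lymphocytes.

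Lesion libraries held 6526099 to 11137414 counts and culture libraries 8063121 to 30231799, so that 3 counts were worth 0.267 to 0.456 CPM (counts relative to library size, scaled by edgeR's TMM factors) in lesions and 0.0954 to 0.41 CPM in culture. These floors cover counting error only. Alignments left uncounted because they mapped to several sites were 0.825 to 1.04 times the counts in lesions and 0.743 to 9.24 times in culture. They were highest in the 3 shallowest culture libraries: WT POVPC hypoxia replicates 1 (5.79) and 2 (9.24) and KO vehicle hypoxia replicate 3 (8.07). Their part in the results was not tested. Pou5f1, which encodes Oct4, had counts in 1 of 8 lesion libraries (3 counts) and in 3 of 24 culture libraries (2 at most), so it could not check the genotype labels. The 12 smooth muscle contractile markers were summed in culture. With vehicle in normoxia the sum was 386 to 444 CPM in the WT line and 146 to 205 CPM in the KO line. With POVPC in normoxia it was 187 to 224 CPM in WT and 178 to 190 CPM in KO. The hypoxia groups held 41.7 to 87.5 CPM. The defining markers of endothelium (summed level at most 6.05 CPM), T cells (at most 2.46 CPM) and adipocytes (at most 0.633 CPM) were near 0 in culture. Mesothelial markers were not: their sum was 32.8 to 38.5 CPM in the WT line with vehicle in normoxia, 567 to 735 CPM in the same line in hypoxia, and 192 to 208 CPM in the KO line with vehicle in normoxia. The 11 macrophage markers, led by Cd14, summed to 53.7 to 64.2 CPM in the WT line with POVPC in normoxia and 29.8 to 32.7 CPM with vehicle. They summed to 13.9 to 19.2 CPM in the KO line in normoxia and 9.39 to 24.8 CPM in the hypoxia groups. Peripheral nerve markers, led by Pmp22, summed to 208 to 707 CPM over the culture libraries. The part of all these markers in the results below was not tested.

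The windows around the start of transcription, 250 bases before to 50 bases after it, were matched in RefSeq (GRCm38.p6) for 6 of the 10 genes: Pi16, Ly6c1, Cd34, Dpt, Pdgfra and Dpp4. Pi15, Ly6a, Scara5 and Thy1 were not matched. The windows of 4 genes are shown because their responses to hypoxia, described further on, took different forms. In the KO line Dpt overlapped its normoxia level, Cd34 and Pdgfra were lower in both lines, and Ly6c1 rose in WT cells with vehicle and fell with POVPC. The letters searched on both strands were ACGTG and GCGTG, the cores of hypoxia response elements, ATGCAAAT, the octamer that Oct factors bind, TTCNNNGAA, a STAT site, and the NF-kB site. TTCNNNGAA reads the same on both strands, and no matches overlap in these windows. Matches are in capitals.
Dpt, chr1:164796413-164796712, forward strand: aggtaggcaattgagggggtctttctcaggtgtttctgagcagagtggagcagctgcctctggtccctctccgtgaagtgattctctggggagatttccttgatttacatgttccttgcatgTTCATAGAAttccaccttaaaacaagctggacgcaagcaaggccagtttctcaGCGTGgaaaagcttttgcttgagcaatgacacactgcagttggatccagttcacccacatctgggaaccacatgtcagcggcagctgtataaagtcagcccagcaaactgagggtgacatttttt
Cd34, chr1:194938571-194938870, forward strand: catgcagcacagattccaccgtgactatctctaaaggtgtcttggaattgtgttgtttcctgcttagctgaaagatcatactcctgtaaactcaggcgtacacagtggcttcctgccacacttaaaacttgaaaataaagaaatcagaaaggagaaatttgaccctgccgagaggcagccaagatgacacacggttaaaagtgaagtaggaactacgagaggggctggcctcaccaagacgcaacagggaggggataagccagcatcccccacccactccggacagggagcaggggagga
Pdgfra, chr5:75152001-75152300, forward strand: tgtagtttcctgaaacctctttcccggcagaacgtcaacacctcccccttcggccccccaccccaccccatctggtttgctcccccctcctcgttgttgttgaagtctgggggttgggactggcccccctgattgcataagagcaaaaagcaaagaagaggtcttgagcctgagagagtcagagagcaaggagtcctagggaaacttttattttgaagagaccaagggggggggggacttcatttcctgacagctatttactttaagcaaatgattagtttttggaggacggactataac
Ly6c1, chr15:75048788-75049087, reverse strand: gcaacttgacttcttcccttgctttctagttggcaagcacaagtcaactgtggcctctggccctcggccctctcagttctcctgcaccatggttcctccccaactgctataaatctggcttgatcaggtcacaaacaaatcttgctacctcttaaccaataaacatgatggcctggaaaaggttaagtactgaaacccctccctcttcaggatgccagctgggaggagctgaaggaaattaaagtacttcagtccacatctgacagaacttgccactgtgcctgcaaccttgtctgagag
Dpt held 1 match to TTCNNNGAA and 1 to GCGTG, and the other 6 windows (Ly6c1 has 2) held no match to any of the 5. Of all 32851 windows in the table, 32.4% held GCGTG, 19.6% ACGTG, 8.3% TTCNNNGAA, 1.74% ATGCAAAT and 0.155% the NF-kB site. A match or its absence describes these letters and no binding.

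**Figure D1:**
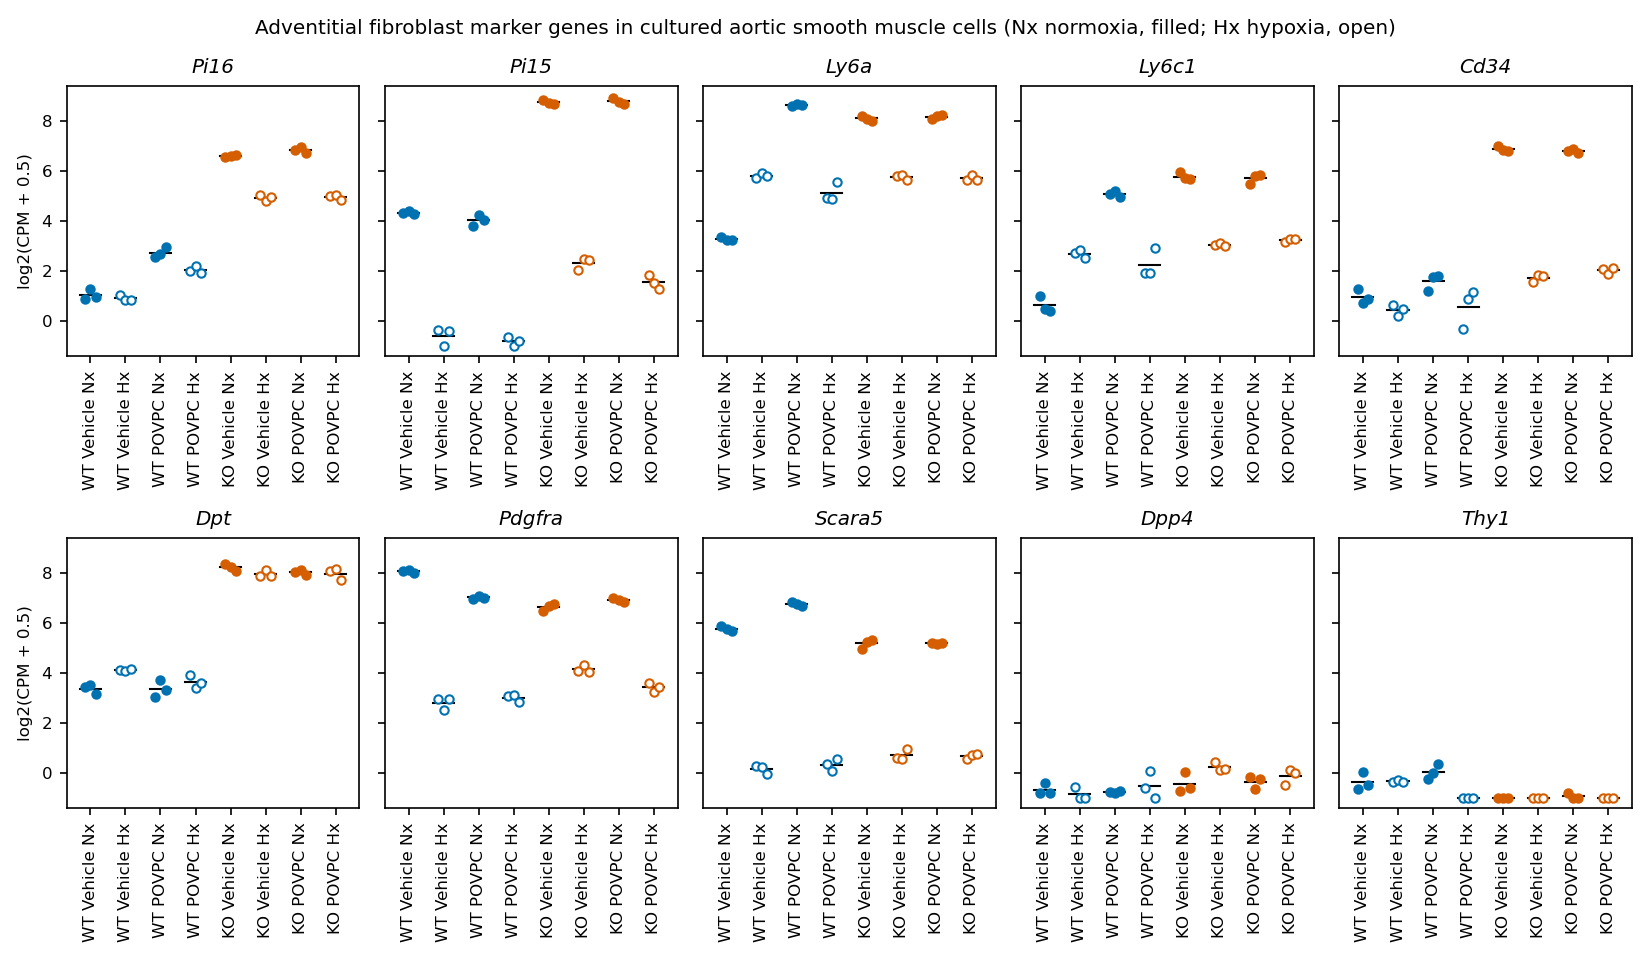
Levels of the 10 genes in the 24 culture libraries, as log2(CPM + 0.5) on the y axis and group on the x axis (Nx normoxia, filled; Hx hypoxia, open; WT blue, KO orange). Points are libraries and bars are group means of the plotted values; Pi15, Pdgfra and Scara5 drop in every hypoxia group, while Dpt stays near 8 in all KO groups.

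Pi16 and Pi15 encode secreted proteins of the CAP superfamily, named after peptidase inhibitors. The 2 genes lie apart in the mouse genome (mm9), Pi16 at chr17:29455827-29465847 and Pi15 at chr1:17591982-17621020, both on the forward strand. In normoxia with vehicle, Pi16 stood at 1.37, 1.91 and 1.45 CPM in the WT line and at 94.6, 97.9 and 98.1 CPM in the KO line. Pi15 stood at 19.7, 20.9 and 18.9 CPM in the WT line and at 454, 421 and 410 CPM in the KO line. Neither gene's libraries overlapped between the lines, and the fitted log2 differences were 5.93 ± 0.13 (SE) for Pi16 and 4.43 ± 0.16 for Pi15, given without a test.

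In hypoxia, Pi15 fell steeply in both lines. It dropped to 0.28, 0 and 0.271 CPM in the WT line and to 3.59, 5.15 and 4.89 CPM in the KO line with vehicle, a log2 change of -6.54 ± 0.26 and -6.58 ± 0.18 (edgeR quasi-likelihood test with Benjamini-Hochberg adjustment, FDR 7.06e-16 and 1.42e-18). With POVPC it fell from 13.3, 18.7 and 15.9 CPM to 0.151, 0 and 0.0782 CPM in the WT line, and from 480, 436 and 411 CPM to 3.11, 2.35 and 1.96 CPM in the KO line. The WT hypoxia libraries held 8, 0 and 8 counts of Pi15 with vehicle and 2, 0 and 2 with POVPC. Those with POVPC lie under the floor of 3 counts. The WT log2 changes of Pi15 and their SE rest on these few counts and are rough. The libraries did not overlap in any of the 4 comparisons, and the line that started higher also ended higher. Pi16 changed less: it went from 94.6, 97.9 and 98.1 CPM to 32.4, 27.2 and 30.7 CPM in the KO line with vehicle (log2 change -1.69 ± 0.10). In the WT line with vehicle it stood at 1.58, 1.32 and 1.32 CPM in hypoxia, overlapping its normoxia libraries. With POVPC, Pi16 was lower in hypoxia in both lines, going from 5.48, 5.87 and 7.42 CPM to 3.56, 4.1 and 3.32 CPM in WT and from 113, 125 and 104 CPM to 31.9, 32.3 and 28.5 CPM in KO. With POVPC the log2 change of Pi16 was -0.81 ± 0.14 in WT and -1.88 ± 0.10 in KO. That of Pi15 was -7.44 ± 0.36 in WT and -7.47 ± 0.19 in KO. The WT value of Pi15 rests on libraries under the floor, and its SE may be too small.

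Of the other 8 CAP genes listed, 4 passed the filter in culture: Crispld2, Glipr1, Glipr2 and R3hdml. Only Glipr2 fell in all 4 hypoxia comparisons, by 0.94 and 0.53 on the log2 scale in the WT line (vehicle and POVPC) and by 1.52 and 1.85 in the KO line. Glipr1 fell in the WT line with vehicle (-0.32) and rose in the KO line with vehicle (0.28).

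Ly6a and Ly6c1 encode small surface proteins held by a lipid anchor and lie 46129 bases apart on the reverse strand of chromosome 15 (mm9 chr15:74825307-74828318 and chr15:74874448-74879267). Ly6c1 has a near-identical neighbour, Ly6c2, and reads of the 2 may have been split uncertainly; Ly6c2 was at most 0.546 CPM in any culture library. Ly6a in normoxia was 9.76, 8.87 and 9.03 CPM in the WT line with vehicle and 388, 413 and 400 CPM with POVPC. In the KO line it was already 296, 273 and 257 CPM with vehicle and stood at 270, 291 and 304 CPM with POVPC. The WT vehicle libraries were the lowest of all 8 groups and the WT POVPC libraries the highest, a log2 difference of 5.44 ± 0.14 that is described and not tested. Ly6c1 was likewise low and then high in the WT line, with 1.51, 0.89 and 0.831 CPM and then 33.7, 36 and 31.1 CPM with POVPC. The ribosomal RNA gene Rn45s was looked up after the values were seen. It took 3.23 to 11.1% of counts in the WT POVPC normoxia libraries, against 1.31 to 1.5% with vehicle. In the hypoxia libraries of both lines it took 2.11 to 8.31%, and its part in these levels was not tested.

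The hypoxia response of the pair differed in direction between the groups. In the WT line with vehicle, Ly6a went up to 52.9, 60.3 and 54.9 CPM (log2 change 2.60 ± 0.12, no test), and Ly6c1 rose to 6.09, 6.64 and 5.21 CPM (2.46 ± 0.23, edgeR FDR 4.96e-10). In the other 3 comparisons both genes were lower in hypoxia. With POVPC the WT line held Ly6a at 29.9, 29.2 and 46.4 CPM (-3.49 ± 0.12, no test), and Ly6c1 fell to 3.33, 3.28 and 7.03 CPM (-2.75 ± 0.19, edgeR FDR 1.28e-12). In the KO line Ly6a reached 54.8, 56.6 and 49.2 CPM with vehicle and 50, 57.6 and 50 CPM with POVPC, so that 3 of the 4 hypoxia groups held Ly6a at group means of 52.5 to 56 CPM. The KO line's Ly6c1 ended at 7.72, 8.24 and 7.54 CPM with vehicle and at 8.47, 9.22 and 9.16 CPM with POVPC. The highest mean of Ly6a over the 8 groups was 43.4 times the lowest, and that of Ly6c1 50.6 times.

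**Figure D2:**
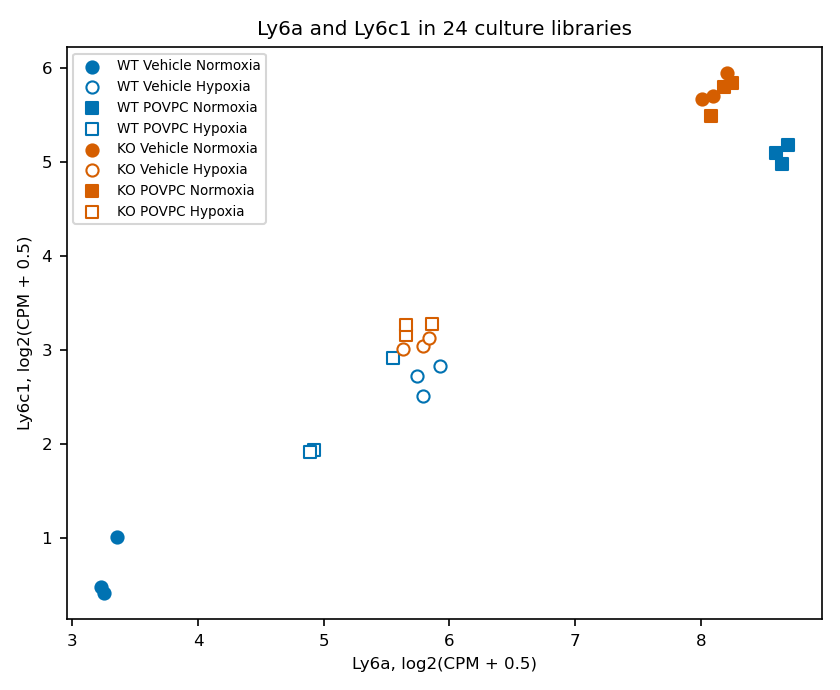
Ly6c1 (y axis) against Ly6a (x axis) in the 24 culture libraries, both as log2(CPM + 0.5), with WT blue, KO orange, vehicle as circles, POVPC as squares and hypoxia as open symbols. The WT vehicle normoxia libraries sit at the lower left, the hypoxia libraries between about 5 and 6 on the Ly6a axis, and the other normoxia libraries at the upper right.

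Likeness of profile was measured as the root mean square difference between centred group means of log2(CPM + 0.5) over the 8 culture groups, among 12932 genes. By it Ly6c1 was the gene nearest to Ly6a and Ly6a the gene nearest to Ly6c1, at 0.38, and Wif1 and Eps8 came next for both (0.59 and 0.718 from Ly6a, 0.682 and 0.61 from Ly6c1). Of the Ly6 genes at the same locus that passed the filter, Ly6e fell in 3 hypoxia comparisons, those in which Ly6a was lower. Ly6e stood at 26.4 ± 2.15 CPM (SD, n = 3) in the WT line with vehicle in normoxia and 27.9 ± 4.4 CPM in hypoxia. Lynx1 fell in all 4, by 0.30 to 1.16 on the log2 scale, and Slurp1 rose in the WT line, by 2.05 with vehicle and 1.6 with POVPC. Of the 8 Ly6 genes tested besides Ly6a and Ly6c1, 3 were called higher and 1 lower in the WT line with vehicle. With POVPC there, 3 were called higher and 2 lower. In the KO line 0 were called higher, and 6 were called lower with vehicle and 4 with POVPC. All 8, Slurp1 among them, had a negative change in both KO comparisons. In that order, 32.8%, 31.8%, 32.6% and 34.5% of all genes were called higher and 35.3%, 34.3%, 32.8% and 33.9% lower.

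Cd34 encodes a sialomucin on the surface of blood progenitors, endothelium and many fibroblasts (mm9 chr1:196765015-196787486, forward strand). With vehicle in normoxia it stood at 1.94, 1.14 and 1.37 CPM in the WT line and 128, 114 and 112 CPM in the KO line, with no overlap. In hypoxia the KO line held 2.49, 3.14 and 2.96 CPM with vehicle and 3.78, 3.25 and 3.91 CPM with POVPC (log2 changes -5.38 ± 0.20 and -4.92 ± 0.18, no test). The KO line in hypoxia was thus within a few CPM of the WT line in normoxia. In the WT line Cd34 stood at 1.05, 0.659 and 0.914 CPM in hypoxia with vehicle (log2 change -0.71 ± 0.29) and at 0.303, 1.37 and 1.72 CPM with POVPC (-1.06 ± 0.29). Without the 3 shallowest culture libraries the POVPC change was -0.55. The profiles most like that of Cd34 were those of Ptpn5 (0.429) and Oxtr (0.604).

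Dpt, dermatopontin, binds decorin and collagen in the matrix (mm9 chr1:166726863-166754397, forward strand). In the KO line it stood at 324, 300 and 269 CPM with vehicle in normoxia and 233, 272 and 230 CPM in hypoxia, and at 258, 275 and 236 CPM with POVPC in normoxia and 266, 279 and 205 CPM in hypoxia. The groups overlapped in both cases, with a log2 change of -0.28 ± 0.14 with vehicle, or -0.37 without KO vehicle hypoxia replicate 2. In the WT line Dpt went from 10.2, 10.9 and 8.24 CPM to 16.7, 16.4 and 17.3 CPM with vehicle (log2 change 0.78 ± 0.15), without overlap. With POVPC the WT line had 7.65, 12.7 and 9.45 CPM in normoxia and 14.5, 10.1 and 11.5 CPM in hypoxia, overlapping values with a log2 difference of 0.28 ± 0.17, or 0.51 without WT POVPC normoxia replicate 2. The nearest profile was that of Hoxb9 (0.221), followed by Sp8 (0.29) and Zfp532 (0.314).

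Pdgfra and Scara5 ran the other way between the lines. Pdgfra (mm9 chr5:75548316-75594229, forward strand) is the receptor tyrosine kinase used to sort fibroblasts, and Scara5 (mm9 chr14:66285240-66383663, forward strand) is a scavenger receptor that takes up ferritin. With vehicle in normoxia Pdgfra stood at 267, 276 and 254 CPM in the WT line and 88.9, 100 and 106 CPM in the KO line, and Scara5 at 57.7, 53.3 and 50.7 CPM and 30.7, 37 and 39.3 CPM. For both genes every WT library lay above every KO library. In hypoxia with vehicle that order turned for both. There the WT line held Pdgfra at 7.11, 5.16 and 7.14 CPM and the KO line at 16.4, 19.2 and 16 CPM, and Scara5 was 0.701, 0.659 and 0.474 CPM in the WT line and 1.01, 0.953 and 1.43 CPM in the KO line. With POVPC, Pdgfra overlapped between the lines in normoxia (124, 135 and 125 CPM in WT and 125, 119 and 114 CPM in KO) and was higher in the KO line in hypoxia (7.95, 8.2 and 6.53 CPM in WT and 11.5, 8.99 and 10.2 CPM in KO). With POVPC, Scara5 was higher in WT in normoxia (113, 107 and 102 CPM against 35.9, 34.7 and 35.9 CPM in KO) and overlapped in hypoxia.

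Both genes fell in all 4 hypoxia comparisons. The log2 change of Pdgfra was -5.34 ± 0.12 in the WT line with vehicle and -4.11 ± 0.12 with POVPC, and -2.51 ± 0.10 and -3.54 ± 0.11 in the KO line (edgeR FDR 7.13e-25, 3.11e-22, 1.71e-18 and 8.71e-22). Scara5 fell to between 0.474 and 1.43 CPM in the hypoxia libraries of both lines, from 30.7 CPM or more in every normoxia library. Its log2 changes were -6.47 ± 0.14 and -6.99 ± 0.15 in the WT line and -5.05 ± 0.14 and -5.04 ± 0.14 in the KO line. The lowest hypoxia library held 4 counts of Scara5, so these log2 changes and their SE are rough as well. Sfrp2, a secreted Wnt antagonist of adventitial fibroblasts, had the profile most like that of Pdgfra (0.278), with Notch3 (0.385) and Gstt1 (0.454) next, and Pde1a (0.584), Hgf (0.651) and Pde9a (0.681) were nearest to Scara5.

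**Figure D3:**
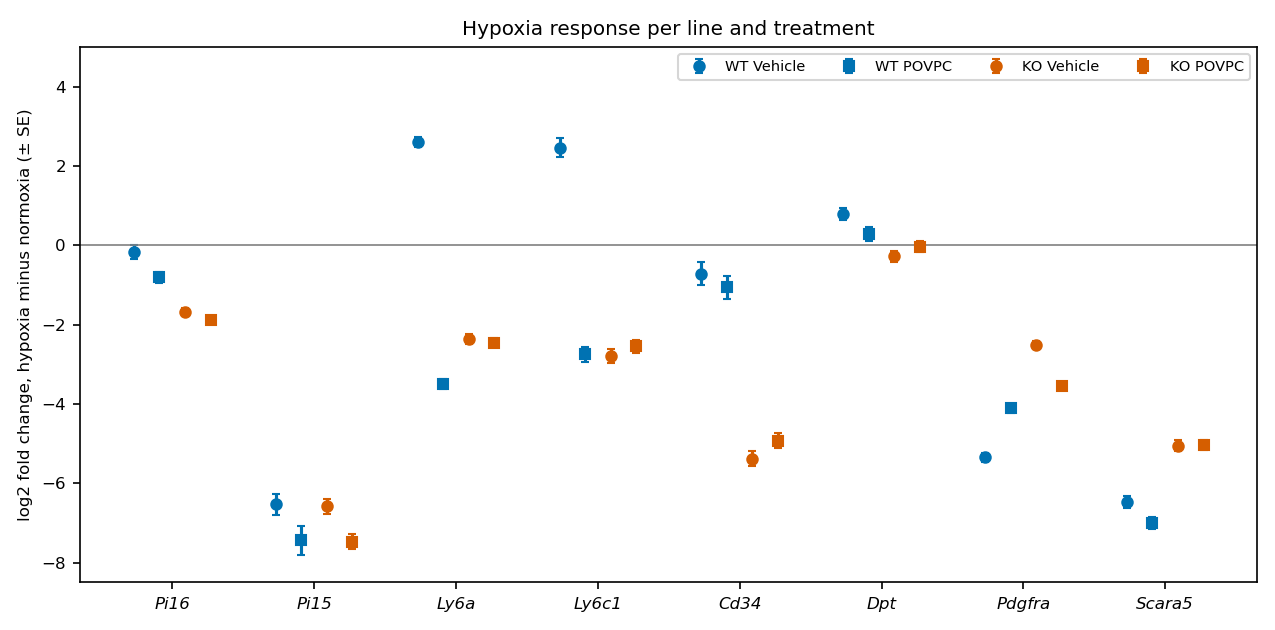
Log2 fold change from normoxia to hypoxia with its SE (y axis) for the 8 genes other than Dpp4 and Thy1 (x axis), in the WT line (blue) and KO line (orange), with vehicle (circles) and POVPC (squares). Pi15 in the WT line rests on at most 8 counts a library in hypoxia. Pi15, Cd34, Pdgfra and Scara5 lie below 0 in all 4 comparisons, while Ly6a and Ly6c1 lie above 0 in the WT line with vehicle and below it in the other 3.

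Dpp4 and Thy1, which mark the progenitor-like cells in tissue, were near the floor in every culture group. Dpp4, a surface peptidase that cuts incretins and chemokines (mm9 chr2:62168130-62250288, reverse strand), did not exceed 0.844 CPM or 20 counts in any culture library, and it passed in none of the comparisons tested. Thy1, a lipid-anchored surface glycoprotein (mm9 chr9:43851467-43856662, forward strand), had 0 counts in the KO line except for 2 counts in 1 POVPC normoxia library. In the WT line it had 26 counts in all with vehicle in normoxia, 22 in hypoxia, 38 with POVPC in normoxia and 0 with POVPC in hypoxia. Thy1 passed the filter on low counts only through WT normoxia libraries. These were POVPC replicates 2 and 3 (14 and 16 counts) and vehicle replicate 2 (16 counts). Its difference between WT POVPC normoxia and hypoxia is therefore partly fixed by the filter and is given without a p-value. WT POVPC hypoxia differed from WT vehicle hypoxia (edgeR FDR 0.0206), but not without its replicate 1 (FDR 0.0534) or replicate 3 (FDR 0.0853). These comparisons of Thy1 gave a result in only 13 and 12 of the 16 settings. Both genes stayed near 0 throughout, so their nearest profiles are not named.

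Counted together, 7 of the 10 genes were called in the WT line with vehicle in hypoxia, where 68.1% of the 14496 genes tested were called. Of these, 3 were higher and 4 lower, against 32.8% and 35.3% of all genes. With POVPC 8 were called, against 66.1% of all genes, and all 8 were lower, against 34.3%. In the KO line 7 were called with vehicle, all lower, against 65.4% called and 32.8% called lower. With POVPC 7 were again called lower, against 68.5% and 33.9%. The share of members called in either direction was near that of all genes in each comparison and is no result about them. The normoxia libraries that had drawn attention to some of the genes enter these comparisons, so the counts by direction support nothing further. Thy1, which passed the filter only through WT normoxia libraries, is among the 8. The median log2 change of the 10 genes was -0.44, -3.12, -2.44 and -2.50 in that order, beside -0.03, -0.02, 0.02 and 0.03 over all genes tested. Nothing is read from these medians either. They start from the same normoxia libraries and include Dpp4 and Thy1, whose log2 changes rest on near-0 counts.

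The difference between the lines in the hypoxia response was fitted as an interaction. It equals the line difference in hypoxia minus that in normoxia, and the latter is what drew attention to Pi16, Ly6a, Cd34 and Dpt. Their calls are therefore partly fixed by that choice, and the counts are printed as a description from which nothing is read. With vehicle 7 genes were called, 2 with a higher response in the KO line and 5 with a lower one, against 39.1% of all genes (19.2% higher and 19.9% lower). The 5 were Pi16, Ly6a, Ly6c1, Cd34 and Dpt, and the 2 were Pdgfra and Scara5, which fell less in the KO line. With POVPC 5 were called, 3 higher and 2 lower, against 30% (15.7% and 14.4%). There Ly6a joined Pdgfra and Scara5 among those that fell less in the KO line, and Pi16 and Cd34 had the lower response there. For the POVPC response in hypoxia 3 were called, 1 higher (Ly6a) and 2 lower (Pi16 and Pdgfra), against 9.37% (5.89% and 3.48%).

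Of 29 further adventitial fibroblast genes in the table, 25 passed the filter in culture. With hypoxia 19 fell and 5 rose in the WT line with vehicle, 21 fell and 1 rose with POVPC, 21 fell and 3 rose in the KO line with vehicle, and 21 fell and 2 rose with POVPC. The shares of all genes called lower in these comparisons were 35.3%, 34.3%, 32.8% and 33.9%, and called higher 32.8%, 31.8%, 32.6% and 34.5%. Cd248 (endosialin, a stromal surface protein) fell in all 4: from 40.1 ± 5.96 to 0.417 ± 0.173 CPM in the WT line with vehicle (SD, n = 3) and from 154 ± 32.7 to 1.87 ± 0.564 CPM in the KO line. Sfrp2 fell from 422 ± 31.2 to 16.8 ± 0.537 CPM in the WT line with vehicle, and Col15a1, a basement membrane collagen, from 13.3 ± 1.77 to 0.412 ± 0.282 CPM in the KO line with vehicle. The median log2 change of the 25 was -1.59, -1.47, -2.41 and -2.69. The contractile markers also fell in hypoxia, 10 of 11 tested in the WT line with vehicle and 9 with POVPC, and 5 in the KO line with vehicle and 7 with POVPC, against the same shares, and their part in the fibroblast genes was not tested.

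In the KO line the POVPC response was tested in normoxia and in hypoxia. The normoxia count is near the share of all genes and is no result about the 10. In normoxia none was called by edgeR, against 0.0414% of all genes, 2 (Pi16 and Pdgfra) had an unadjusted p under 0.05, beside 7.42% of all genes, and DESeq2 called none of the 10 and 16 genes in all (0.11%). KO vehicle normoxia replicate 3, in which Rn45s took 8.02% of counts against 1.59% and 1.29% in the other two, stands apart from its group. Without it edgeR called 2.1% of all genes and still none of the 10, and with any other of the 6 libraries left out 0.00677 to 0.0204%. In hypoxia 2 were called, both lower, against 4.06% called and 2.09% called lower. The share of all genes called was 1.82% without KO vehicle hypoxia replicate 2, 2.54% without its replicate 3 and 2.04% without KO POVPC hypoxia replicate 3. Pdgfra went from 16.4, 19.2 and 16 CPM to 11.5, 8.99 and 10.2 CPM (log2 change -0.76 ± 0.11, edgeR FDR 6.88e-05), with no overlap. Pi15 went from 3.59, 5.15 and 4.89 CPM to 3.11, 2.35 and 1.96 CPM (-0.85 ± 0.21, FDR 0.0229). The Pi15 call was lost without KO vehicle hypoxia replicate 2 or 3 (FDR 0.145 and 0.0661) and without KO POVPC hypoxia replicate 2 or 3 (0.0751 and 0.127).

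In the WT line in hypoxia 4 genes were called with POVPC, against 21% of all genes, 1 higher (8.22%) and 3 lower (12.7%). Pi16 rose from 1.58, 1.32 and 1.32 CPM to 3.56, 4.1 and 3.32 CPM (log2 change 1.33 ± 0.17, edgeR FDR 1.67e-06) and kept its call in every setting in which it was refitted. Ly6a fell from 52.9, 60.3 and 54.9 CPM to 29.9, 29.2 and 46.4 CPM (-0.65 ± 0.12, FDR 0.000174). WT POVPC hypoxia replicates 1 and 2, the lower pair, are also among the 3 shallowest culture libraries, and without the 3 the change was -0.28 (FDR 0.121). Dpt fell from 16.7, 16.4 and 17.3 CPM to 14.5, 10.1 and 11.5 CPM (-0.47 ± 0.16, FDR 0.0436), a call that 11 of the 16 settings tried did not keep, and Thy1 was the last. In the same line the Ly6c1 libraries were 3.33, 3.28 and 7.03 CPM with POVPC: without replicate 3 the log2 change went from -0.25 to -0.85 (FDR 0.00338). Cd34 had 0.303, 1.37 and 1.72 CPM there, and without replicate 1 its log2 change went from 0.45 to 0.85 (FDR 0.0356).

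**Figure D4:**
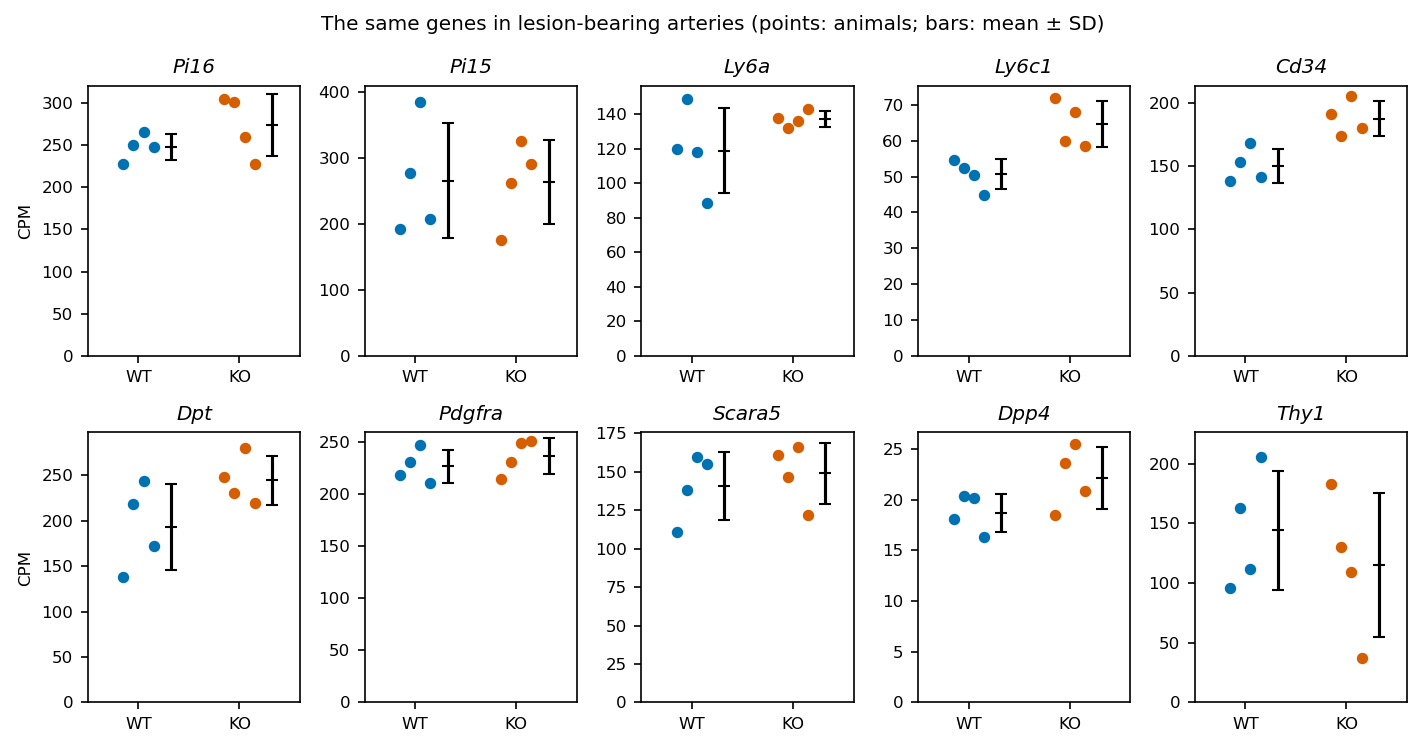
CPM of the same 10 genes in the arteries of the 4 WT and 4 KO animals (points), with the mean and SD beside them; each y axis starts at 0. Only Ly6c1 and Cd34 have KO animals that all lie above all WT animals.

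In the lesion-bearing arteries all 10 genes were measured well, and none differed between genotypes by edgeR's test, which called 0 of 14993 genes (0%). By unadjusted p under 0.05, 2 of the 10 passed (Ly6c1 and Cd34), beside 14.8% of all genes, and DESeq2 called none of the 10 and 489 genes in all (3.77%). Per kilobase of exon (RPKM), Ly6a was the highest of the 10 at 155 ± 23.3 (SD, n = 8 animals of both genotypes), followed by Dpt at 134 ± 27.5 and Pi16 at 116 ± 13. Dpp4 was the lowest at 3.24 ± 0.47 RPKM. In tissue, fewer cells of a type and less RNA per cell cannot be told apart.

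Cd34 stood at 191, 174, 205 and 180 CPM in the KO arteries and at 138, 153, 168 and 141 CPM in the WT arteries, a log2 difference of 0.32 ± 0.10 (edgeR FDR 0.192). Ly6c1 stood at 72, 60, 68 and 58.5 CPM in KO and at 54.7, 52.4, 50.4 and 44.9 CPM in WT, a difference of 0.35 ± 0.10 (FDR 0.183). These 2 did not overlap between genotypes, as 8.8% of all genes did not, and both are also made by endothelium. The summed level of the 12 endothelial markers was 1850 to 2140 CPM in KO and 1420 to 1740 CPM in WT, also without overlap. The 11 macrophage markers summed to 4340 to 9840 CPM in KO and 2660 to 3950 CPM in WT, and all 11 had a positive difference (median log2 0.815). The 12 contractile markers summed to 5290 to 7600 CPM in KO and 7390 to 11400 CPM in WT, and all 12 had a negative difference (median log2 -0.435). The 8 adipocyte markers summed to 2560 to 3680 CPM in KO and 1910 to 3020 CPM in WT, which overlap. Of these, 7 had a positive and 1 a negative difference (median log2 0.275). None of these markers was called, and their part in the levels of the 10 genes was not tested.

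The other members overlapped. Dpt was 248, 230, 280 and 219 CPM in KO and 138, 218, 244 and 172 CPM in WT (0.34 ± 0.17, edgeR FDR 0.4). Pi16 was 305, 301, 260 and 228 CPM in KO and 228, 250, 265 and 247 CPM in WT (0.14 ± 0.11, FDR 0.59). Ly6a was 138, 132, 136 and 143 CPM in KO and 120, 149, 118 and 88.6 CPM in WT (0.21 ± 0.14, FDR 0.517). The KO animals thus lay close together for Ly6a while the WT animals spread on both sides of them. Dpp4 was 18.5, 23.6, 25.5 and 20.8 CPM in KO and 18.1, 20.3, 20.1 and 16.3 CPM in WT (0.24 ± 0.13, FDR 0.403). Pdgfra ranged from 214 to 251 CPM in KO and from 210 to 247 CPM in WT, Scara5 from 122 to 166 and from 111 to 160 CPM, and Pi15 from 176 to 326 and from 193 to 384 CPM. Thy1 ranged from 37.5 to 183 CPM in KO and from 96.3 to 206 CPM in WT. T cell and thymocyte markers, whose cells also make Thy1, summed to 33.1 to 128 CPM in KO and 76.8 to 228 CPM in WT, and their part was not tested. Of 28 further adventitial fibroblast genes tested in lesions, none was called, 15 had a positive and 13 a negative difference (KO minus WT), and their median log2 difference was 0.03.

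Set beside each other, the 2 tables, which were counted and scaled apart, placed the genes differently. Dpp4 was 16.3 to 25.5 CPM in the arteries and at most 0.844 CPM in culture, and Thy1 was 37.5 to 206 CPM in the arteries and at most 0.792 CPM in culture. Pi15 was 176 to 384 CPM in the arteries and 410 to 480 CPM in the KO line in normoxia. Cd34, at 138 to 205 CPM in the arteries, was 106 to 128 CPM in the KO line in normoxia and at most 3.91 CPM in every other culture group.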

How the data were processed

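The deposited values are raw counts per gene. Per the file headers the authors counted reads with featureCounts 1.4.4 over exons by gene name, against UCSC mm9 genes and without strand. Lesion reads were counted as fragments with both mates, while in culture each mate was counted, so a read pair can count as 2 in culture. The submitters' processing notes also name CASAVA, STAR, Subread and DESeq2 with no role or order. The length column gives exon length in bases.

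The 10 genes, the gene lists and the tests were chosen with earlier results of these data known. Every member is named. Of the other lists, family members of Ly6 and CAP genes and the 3 adventitial genes with the largest changes among those called with a mean of at least 1 CPM could be named. Lesion and culture tables were fitted apart with edgeR 4.0.16 in R 4.3.3 (TMM scaling, filterByExpr with a minimum count of 10 and a minimum total of 15, robust quasi-likelihood fit). The 24 culture libraries shared 1 model, p-values were adjusted by Benjamini-Hochberg over all genes tested, and an FDR under 0.05 was called. There were 11 tested comparisons, and 5 were described without a test. Alternatives were other scalings and filters, DESeq2 1.42.0, each library left out, compared groups alone, counts halved, the 3 shallowest culture libraries left out, and the replicate number as a block. The scripts were tested on simulated counts. Total counts limit the precision of each value, and the floors cover counting error only. The SE of a log2 change is its absolute value divided by the square root of the F statistic of edgeR's test. It therefore includes the spread between libraries, and near 0 counts it is not a reliable measure of error.

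Same-numbered libraries had correlations of their deviations over 0.1 at every number for hypoxia in the KO line with POVPC (0.119 to 0.377) and for no other comparison. They were positive but lower at some number for POVPC in the WT line in hypoxia (0.0627 to 0.264), where each of the 3 libraries correlated best with its own number, and between lines with POVPC in normoxia (0.0383 to 0.301). In lesions the correlations ran from -0.666 to 0.121. Pairing rests on these correlations and not on the labels.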

Additional observations from a re-analysis of the deposited data

Results flagged for a closer look

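The interaction test between the lines called 15 pairs of gene and contrast, given on the log2 scale as KO minus WT. Of all genes it called 39.1% for hypoxia with vehicle, 30% for hypoxia with POVPC and 9.37% for POVPC in hypoxia. Nothing is read from the count of 15. The hypoxia differences of Pi16, Ly6a, Cd34 and Dpt contain the normoxia line difference on which these genes were chosen, so they are values only and their calls support nothing. For hypoxia with vehicle the differences were -1.52 for Pi16, -4.96 for Ly6a, -5.26 for Ly6c1, -4.67 for Cd34, -1.06 for Dpt, 2.83 for Pdgfra and 1.42 for Scara5. For hypoxia with POVPC they were -1.07 for Pi16, 1.03 for Ly6a, -3.87 for Cd34, 0.57 for Pdgfra and 1.96 for Scara5. The sign for Ly6a differs between vehicle and POVPC. For the POVPC response in hypoxia they were -1.29 for Pi16, 0.62 for Ly6a and -0.93 for Pdgfra. That Ly6a difference lost its call without WT POVPC hypoxia replicate 1 (0.51, FDR 0.05) or replicate 2 (0.50, FDR 0.0547), without KO vehicle hypoxia replicate 3 (0.54, FDR 0.0533), with the compared groups fitted alone (0.60, FDR 0.0655) and without the 3 shallowest libraries (0.18, FDR 0.601). With 1 line per genotype, these are differences between 2 lines.

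Among the 20 sets of 4 lesion animals tested for a single animal far from the others, 0 were beyond Dixon's critical value, where chance alone marks about 1 in 20.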

How the results depend on the processing

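The 50 called results on single members include the hypoxia results of Pi16, Ly6a, Cd34, Dpt and Thy1 given only as descriptions. Of the 50, 43 kept direction and call in every setting in which they were refitted. Among the 43, Thy1 for hypoxia in the WT line with POVPC had a result in only 13 settings. The other 7 lost their call in some setting (Cd34 in the WT line under hypoxia with vehicle and with POVPC, Pi15 with POVPC in the KO line in hypoxia, Ly6a, Dpt and Thy1 with POVPC in the WT line in hypoxia, and the Ly6a difference between lines in that response). For POVPC in the KO line in hypoxia the 2 members called became 1 with genes of at least 1 count kept and 1 without the 3 shallowest culture libraries, and ranged from 1 to 2 when single libraries were left out. For POVPC in the WT line in hypoxia the 4 became 2 with the compared groups fitted alone, 1 without the 3 shallowest libraries and 2 with counts halved; the filter then left fewer members tested in the first and last. Without the 3 shallowest libraries the log2 change of Ly6c1 there became 0.239 and that of Pdgfra -0.0109, and the difference between lines in that response became -0.0837 for Ly6c1 and 3.08 for Dpp4, none of them called. When single libraries were left out, Cd34 there ranged from -0.386 to 0.848. The cause was not tested.

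Of 110 pairs of member and comparison, 30 lay within 1 SE of 0 and were not called, and 4 held at most 3 counts per group. These were set apart after the results were seen and no direction is claimed for them. Over 503 refits of the 30, the sign changed in 76 and 2 became called. With the replicate number as a block, the members called for hypoxia in the KO line with vehicle went from 7 to 8. The added gene was Dpt, whose hypoxia responses are descriptions only, so nothing is read from it. DESeq2, the compared groups fitted alone and the fit without KO vehicle hypoxia replicate 2 also called Dpt lower there. The block changed no other count of members. Scaling by library size alone moved the median of all genes to -0.21 for hypoxia in the WT line with vehicle and -0.11 with POVPC, and the share of calls that were higher from 48.1% to 36.4% in the first. It moved that share from 48.5% to 78.3% for POVPC in the KO line in hypoxia, from 49.2% to 60.1% for the difference between lines in the hypoxia response with vehicle, and from 62.9% to 80.6% for that in the POVPC response in hypoxia. Over all genes, the calls for POVPC in the KO line went in normoxia from 6 to 3 with library size alone, 3 without robust fitting, 16 with DESeq2 and 0 with the compared groups fitted alone, and in hypoxia from 588 to 341 with library size alone and 1012 with DESeq2. They went in the WT line in hypoxia from 3037 to 1720 with the compared groups fitted alone and 1073 without the 3 shallowest libraries, and for the difference between lines in that response from 1358 to 828 and 426. In lesions, 0 became 11 with genes of at least 1 count kept and 489 with DESeq2.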
